A study of Mus musculus with 12 samples.

Results

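The 36 genes described here encode NRF2, its inhibitor KEAP1 and enzymes that remove oxidants, electrophiles, haem and free iron. They were taken by symbol from a written list of the pathway's genes, which was chosen with earlier results of these data known. Shares of the members and of the further gene lists set against all genes are therefore descriptive and not an independent test. All 36 members were found among the 17922 genes of the deposited expression table. RNA was sequenced from 12 samples of chondrocytes, the cells that build cartilage, taken from the ribs of mice, in 4 groups of 3. The study addresses how energy metabolism acts in skeletal development, and each knockout was compared here with its own control.

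The first pair of groups came from mice at postnatal day 5. Its knockout animals had both Ldha alleles floxed and 1 intact Ldhb allele (LDH knockout) together with Col2-Cre, whose recombinase is made in cartilage cells, so the main gene for lactate dehydrogenase was removed. The second pair came from embryos at E18.5, in which the same Col2-Cre acted on floxed alleles of Acly (Acly knockout), which removes ATP citrate lyase, the enzyme that makes acetyl-CoA outside mitochondria. Controls were littermates, and their own genotype was not given in the sources used here. The strain was a mixture with C57BL/6 dominant in every group. All cells were freed with collagenase and cultured before lysis, so what was measured is RNA of cultured cells, and in the knockouts Col2-Cre was present from before isolation. Nothing in the labels says whether the 3 samples of a group came from separate animals, pools or cultures, so p-values measure only the spread between these samples. Age, mouse line and deleted gene coincide between the pairs and cannot be told apart.

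NRF2 is a transcription factor that KEAP1 holds in the cytoplasm and hands to the CUL3 ubiquitin ligase for destruction. Oxidants and electrophiles modify cysteines of KEAP1, newly made NRF2 then escapes destruction, and it binds DNA with a small MAF protein at antioxidant response elements. Its known targets make glutathione, reduce thioredoxin, peroxiredoxins and quinones, break down haem and store iron. Cartilage has no blood vessels, and its cells live at low oxygen with a large share of their energy from glycolysis. Because NRF2 is controlled mostly by protein stability, the Nfe2l2 transcript is not a measure of its activity.

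Promoter sequence is shown for the members in which the core of the antioxidant response element, TGACNNNGC, was found before the start of the gene, since the whole list is grouped around this factor. The search covered the RefSeq promoter table of build GRCm38.p6, with 250 bases before and 50 bases after each start, on both strands. It held windows for 29 of the 36 members, and Hmox1, Gclc, Gsr, Prdx6, Sod3, Gsta4 and Abcc1 had none. The core was present in 6 of the 29 members, or 20.7%, against 14.0% of 27025 genes. By window it was present in 6 of the 37 windows of members, against 12.4% of all 32851 windows. Capitals mark the match, which reads TGACNNNGC on the printed strand for Nfe2l2 and on the opposite strand for the other 4 genes. The stretches are given 5′ to 3′ on the gene's strand.
Gclm at chr3:122245398-122245456, plus strand: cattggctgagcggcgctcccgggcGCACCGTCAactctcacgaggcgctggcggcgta
Nfe2l2 at chr2:75704870-75704913, minus strand: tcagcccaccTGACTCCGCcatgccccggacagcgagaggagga
Prdx1 at chr4:116685441-116685499, plus strand: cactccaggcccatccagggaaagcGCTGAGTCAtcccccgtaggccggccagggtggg
Sod1 at chr16:90220681-90220739, plus strand: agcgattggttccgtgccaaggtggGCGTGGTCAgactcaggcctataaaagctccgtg
Txnrd1 at chr10:82859089-82859147, plus strand: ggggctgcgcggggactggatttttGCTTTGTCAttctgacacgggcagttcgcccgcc

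The match of Prdx1 begins 133 bases before the start and reads TGACTCAGC, a form of the same length that 0.454% of all windows held. That of Gclm begins 134 bases before the start, that of Txnrd1 92 bases, that of Sod1 56 bases and that of Nfe2l2 240 bases. Srxn1, the sixth gene, had its match at base 29 after the start and is not printed. These are matches of letters only. Many known elements of this kind lie farther away than this window, and no match in it says nothing about the factor.

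Library totals ran from 26362407 to 28154143 expected counts, and all 36 members passed the filter on low counts in every comparison. Levels are counts scaled to library size (CPM) with TMM factors, which correct for a few genes taking a large share of the counts. They were scaled within the 6 samples of a knockout and its control unless stated. Ldha fell from 845 ± 51.4 to 86.7 ± 6.64 CPM (SD, n = 3) in the LDH knockouts, and Acly fell from 197 ± 4.81 to 74.1 ± 18.9 CPM (SD, n = 3) in the Acly knockouts, with edgeR adjusted p values of 3.26e-07 and 0.0313. The Acly call was kept without Acly knockout 2 and lost without any other single sample of that set, with an edgeR adjusted p of up to 0.233 (without control 3). Summed CPM of 7 chondrocyte marker genes, Col2a1 among them, lay between 8061 and 11350 in the controls. It was higher in every knockout sample, from 17910 to 27120 in LDH knockouts and from 13640 to 16680 in Acly knockouts. Singly, all 7 had a log2 fold change above 0 in both sets. By edgeR 6 were called higher in the LDH set, where 1.43% of all genes were. In the Acly set 1 was called higher, where 0.0573% of all genes were, and 4 had overlapping groups. LDH knockout 3 lay closest to its controls on the first principal component of its set (-2.63, against -17.6 and -25.9 for the other knockouts and 11.9 to 19.2 for the controls). Acly knockout 2 stood apart at 38.2, with the other 5 samples between -19.8 and 3.74. A Y-linked signal, the summed CPM of Ddx3y, Eif2s3y, Kdm5d and Uty, was 74.3 to 121.4 in LDH controls 1 and 2, Acly control 2 and Acly knockouts 2 and 3. It was at most 2.83 in the other samples, which include every LDH knockout.

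In the LDH knockouts 2 members passed the test and both fell, where 1.07% of all genes tested were called lower. They were Srxn1, the sulfiredoxin that repairs over-oxidized peroxiredoxins, and Prdx6, a peroxiredoxin that reduces lipid peroxides. Neither passed with the Y-linked signal as a covariate, and each call was lost in most fits that left out a single sample. With Acly deleted, no member passed the test, and 30 of 36 (83.3%) had a log2 fold change above 0, against 49.7% of all genes tested. The effect on Nqo1, the quinone reductase often used as a readout of NRF2, differed between the knockouts by the test of that difference. The transcripts of NRF2 and KEAP1 themselves did not pass any knockout test. A lower level in bulk RNA can come from fewer cells of a type or from less RNA per cell, and these cannot be told apart here.

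**Figure D1:**
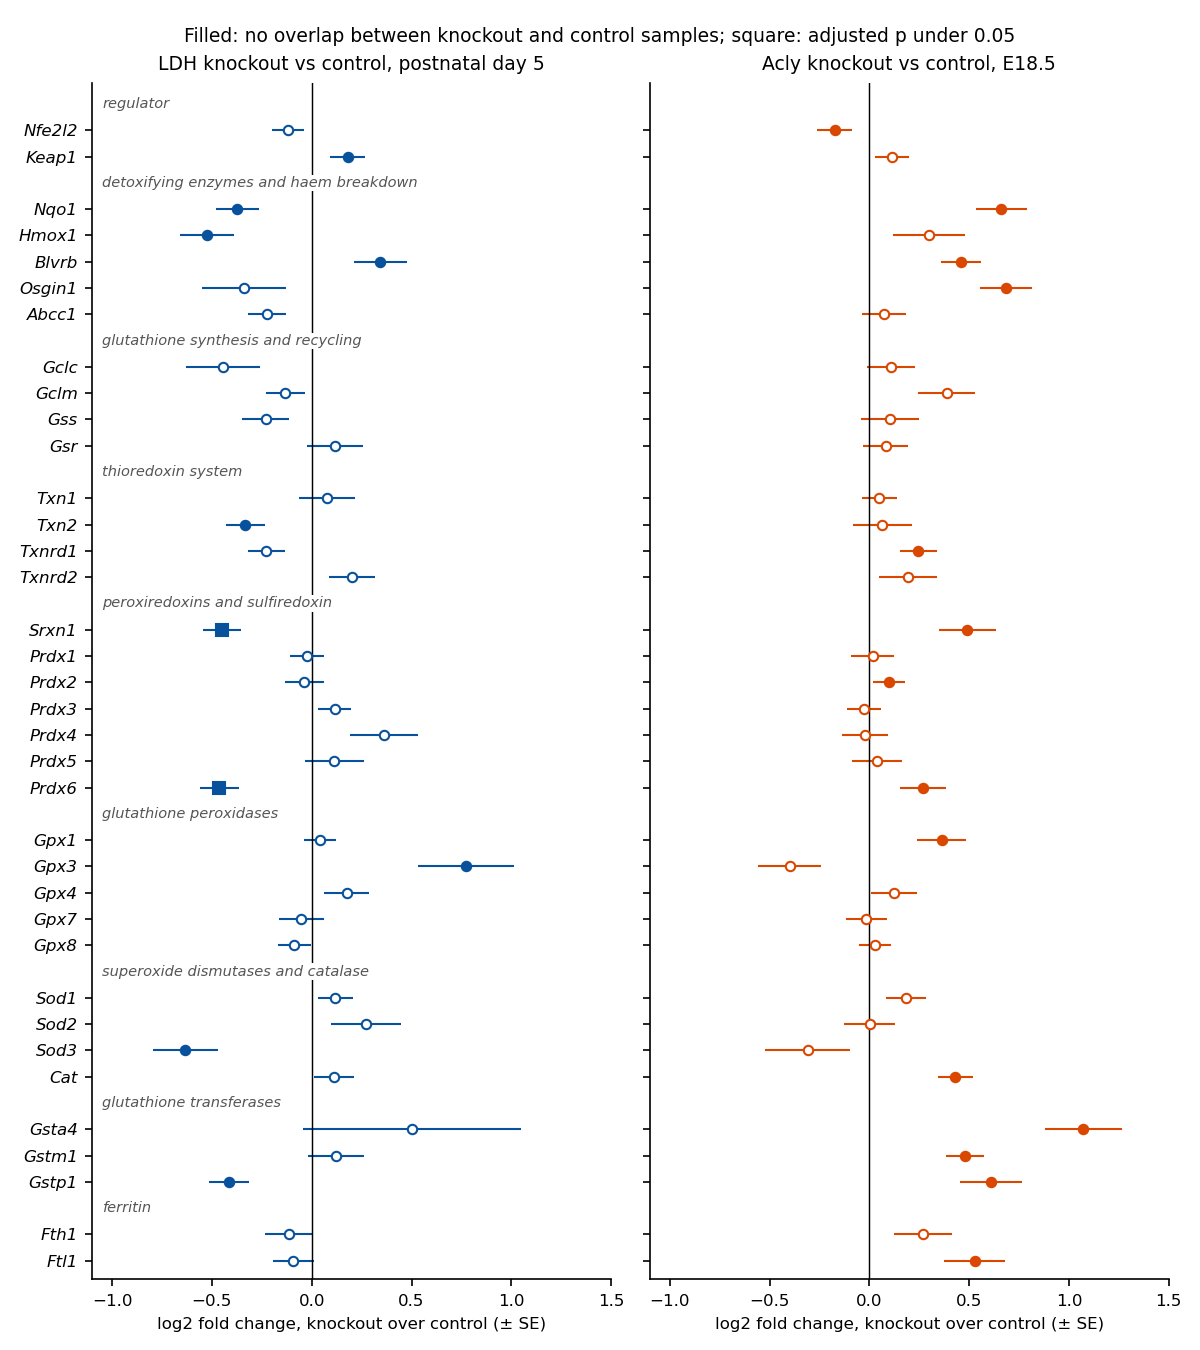
Log2 fold change of each of the 36 genes, knockout over control, with its standard error (horizontal line), for the LDH set on the left and the Acly set on the right, grouped by role. Filled symbols mark genes whose 3 knockout and 3 control samples do not overlap and squares mark an adjusted p under 0.05; Srxn1 and Prdx6 are the 2 squares, both in the LDH set, and 30 of 36 points lie right of 0 in the Acly set.

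The LDH knockout was compared first. Of 13321 genes tested with edgeR's quasi-likelihood test, 2.49% had a Benjamini-Hochberg adjusted p under 0.05, 1.43% higher and 1.07% lower. Among the members 0 were higher and 2 were lower. Their median log2 fold change was -0.04, against 0.01 over all genes tested, with 16 members above 0 and 20 below. At an unadjusted p under 0.05 there were 2 higher and 10 lower members, where 9.79% of all genes were higher and 9.83% lower. Knockout and control samples did not overlap for 3 members that were higher (Keap1, Blvrb and Gpx3) and 7 that were lower (Nqo1, Hmox1, Txn2, Srxn1, Prdx6, Sod3 and Gstp1). This is 8.33% and 19.4% of the members, against 11.9% and 12.5% of all genes. DESeq2 gave 7 members an adjusted p under 0.05, all lower (the 7 just named), in a test that called 3.17% of all genes lower.

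In the Acly knockout 0.136% of 13973 genes tested passed the edgeR threshold, which is 19 genes (0.0573% higher), and 0 of the 36 members were among them. The split was 8 higher and 11 lower, against 3 and 8 on library totals alone and 6 and 13 with limma on FPKM. At an unadjusted p under 0.05, 13 members were higher and 1 was lower, where 7.26% of all genes were higher and 8.57% lower. DESeq2 gave 9 members an adjusted p under 0.05, all higher, in a test that called 1.78% of all genes, 0.759% higher. The members' median log2 fold change was 0.12, against -0.00 over all genes tested. Samples did not overlap for 13 members that were higher, or 36.1%, and for 1 that was lower, Nfe2l2, where 10.7% of all genes were higher without overlap and 11.3% lower. The count of members above 0 depended on the scaling: it was 30 with TMM, 25 on library totals alone and 24 on deposited FPKM values. The members' median was 0.1177, 0.0679 and 0.0655 in these fits, and that over all genes tested moved with it, at -0.0018, -0.0505 and -0.053. With TMM 49.7% of all genes tested were above 0.

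Regulators come first in the pathway. Nfe2l2, which encodes NRF2, stood at 248, 258 and 234 CPM in LDH knockouts 1 to 3 and at 271, 278 and 255 CPM in their controls. Its groups touched, since control 3 was below knockout 2, and the log2 fold change was -0.12 ± 0.08 (SE; edgeR adjusted p = 0.441). Among Acly samples it measured 226, 211 and 216 CPM in knockouts and 238, 234 and 265 CPM in controls. Every knockout was below every control, by -0.17 ± 0.09 on the log2 scale (SE; edgeR adjusted p = 0.357), which did not pass the test.

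Keap1, the inhibitor, measured 62.2, 60.3 and 57.0 CPM in LDH knockouts against 54.2, 47.5 and 56.7 CPM in controls. The lowest knockout was just above the highest control, and the log2 fold change of 0.18 ± 0.09 (SE) had an edgeR adjusted p of 0.289. The Acly samples gave 65.8, 62.6 and 70.2 CPM against 64.0, 59.3 and 60.3 CPM, with overlapping groups and a log2 fold change of 0.11 ± 0.08 (SE; edgeR adjusted p = 0.505). Among 13 further partners and regulators of NRF2 tested, such as the small MAF proteins, BACH1, CUL3 and p62, 0 passed the edgeR threshold in either knockout. At an unadjusted p under 0.05 there were 2 in the LDH set, Park7 (log2 fold change 0.26) and Mafk (-0.25), and 1 in the Acly set, Maff (0.30). Over all genes 9.79% were higher and 9.83% lower at that level in the LDH set, and 7.26% and 8.57% in the Acly set, so these counts lie near the background.

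Nqo1 had the lowest p of the list in the test of the difference between the knockouts. Its level was 84.0, 79.6 and 84.3 CPM in LDH knockouts against 112, 121 and 88.7 CPM in controls. All knockouts were below all controls, though control 3 was nearer to the knockouts than to the other controls. The log2 fold change was -0.37 ± 0.11 (SE), or 1.29-fold lower, with an edgeR adjusted p of 0.0999, or 0.0406 without control 3. Acly samples had the other order, with 126, 159 and 118 CPM in knockouts and 87.6, 76.6 and 90.2 CPM in controls. The lowest knockout exceeded the highest control, and the log2 fold change was 0.66 ± 0.13 (SE), or 1.58-fold higher, with an edgeR adjusted p of 0.114. Without Acly knockout 2 it was 0.53 with an adjusted p of 0.0340.

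Beside the Nqo1 values in the LDH set stands the Y-linked signal, which was 92.95 and 102.1 CPM in controls 1 and 2, 0.590 in control 3 and at most 0.0367 in the knockouts. With that signal as a covariate the log2 fold change of Nqo1 was 0.04, and among the low-signal samples alone, which leave 1 control, it was -0.10. In the Acly set the low-signal samples are 1 knockout and 2 controls, with a log2 fold change of Nqo1 of 0.50, and the high-signal samples are 2 knockouts and 1 control, with 0.85. Both had an edgeR adjusted p above the threshold, and each lone sample is assumed to vary like the other group.

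Hmox1, the haem oxygenase that opens the haem ring, was among the 5 lowest p-values of the list in the LDH set. It measured 658, 812 and 993 CPM in knockouts and 1149, 1184 and 1212 CPM in controls. The groups did not overlap and the knockouts were the more spread out, with knockout 3 highest. The log2 fold change was -0.53 ± 0.13 (SE), or 1.44-fold lower (edgeR adjusted p = 0.0733), and without knockout 3 it was -0.68 with an adjusted p of 0.0108. With Acly deleted the values were 569, 818 and 523 CPM against 489, 451 and 611 CPM. These groups overlapped, with knockout 2 far above the rest, and the log2 fold change of 0.30 ± 0.18 (SE) had an edgeR adjusted p of 0.415. Without Acly knockout 2 it was 0.081.

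Blvrb, a biliverdin and flavin reductase, was the only member higher without overlap in both knockouts. LDH knockouts and controls measured 15.5, 18.6 and 15.4 CPM against 14.8, 11.8 and 12.3 CPM, a change on the log2 scale of 0.34 ± 0.13 (SE; edgeR adjusted p = 0.190). Acly knockouts and controls measured 47.0, 42.7 and 46.8 CPM against 35.2, 29.3 and 34.8 CPM, a change of 0.46 ± 0.10 (SE; edgeR adjusted p = 0.168). Without Acly knockout 2 the latter was 0.51 with an adjusted p of 0.0489. Higher levels without overlap in both sets were found for 1.98% of the 13140 genes tested in both sets.

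Osgin1, an NRF2-induced growth regulator, was low everywhere. Acly knockouts measured 18.3, 19.6 and 17.9 CPM and their controls 13.2, 10.7 and 10.9 CPM. The groups were well apart with a tight knockout group, and the log2 fold change was 0.68 ± 0.13 (SE; edgeR adjusted p = 0.114). Among LDH samples, 6.68, 4.92 and 9.36 CPM in knockouts overlapped 8.67, 9.39 and 8.48 CPM in controls, with a log2 fold change of -0.34 ± 0.21 (SE; edgeR adjusted p = 0.410). Abcc1, a pump that exports glutathione conjugates, had log2 fold changes of -0.23 in the LDH set and 0.07 in the Acly set, and its groups overlapped in both.

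Genes of glutathione synthesis did not pass the test in either knockout, and their groups overlapped in every case. Gclc, the catalytic subunit of the rate-limiting ligase, had a log2 fold change of -0.44 ± 0.19 (SE) in the LDH set, where knockouts ranged from 97.5 to 175 CPM and controls from 153 to 199 CPM. Its edgeR adjusted p was 0.226, and without LDH knockout 3 the change was -0.70 with an adjusted p of 0.0197. Gclm, the modifier subunit, had -0.13 in the LDH set and 0.39 ± 0.14 (SE; edgeR adjusted p = 0.274) in the Acly set. Gss, which completes glutathione, had -0.23 and 0.10, and Gsr, which reduces its disulfide with NADPH, had 0.12 and 0.08 in the LDH and Acly sets.

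In the thioredoxin system Txnrd1, the cytosolic reductase that carries one of the promoter matches shown above, ranged from 271 to 310.1 CPM in LDH knockouts and from 308 to 366 CPM in controls. These ranges touched, and the log2 fold change was -0.23 ± 0.09 (SE; edgeR adjusted p = 0.217). Acly knockouts had 264 to 319.9 CPM against 246 to 252 CPM without overlap, by 0.25 ± 0.09 (SE; edgeR adjusted p = 0.285). Txn2, the mitochondrial thioredoxin, was lower without overlap in LDH knockouts, from 334 to 391 CPM against 405 to 474 CPM, by -0.33 ± 0.10 (SE; edgeR adjusted p = 0.105, or 0.0472 without LDH knockout 3), and had 0.07 in the Acly set. Txn1, the cytosolic form, had 0.08 and 0.05, and Txnrd2, the mitochondrial reductase, 0.20 and 0.19, all with overlapping groups.

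Srxn1 fell in the LDH knockouts. Its level was 172, 164 and 198 CPM in knockouts and 238, 263 and 228 CPM in controls. Every knockout was below every control, and the log2 fold change was -0.45 ± 0.10 (SE), or 1.37-fold lower, with an edgeR adjusted p of 0.0428. Acly samples measured 305, 388 and 278 CPM in knockouts and 218, 209 and 264 CPM in controls. Again the groups did not overlap, now with the knockouts above, by 0.49 ± 0.14 (SE; edgeR adjusted p = 0.236).

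Prdx6 also fell in the LDH knockouts, from 276, 322 and 314 CPM in controls to 213, 206 and 244 CPM. No sample of a group reached the other group, and the log2 fold change was -0.46 ± 0.10 (SE), or 1.38-fold lower, with an edgeR adjusted p of 0.0398. After deletion of Acly it measured 172, 226 and 178 CPM, with 155, 162 and 159.8 CPM in controls and a log2 fold change of 0.27 ± 0.11 (SE; edgeR adjusted p = 0.308). The control group was tight and knockout 2 was the highest sample. Without Acly knockout 2 the change was 0.14.

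The calls of Srxn1 and Prdx6 rested on all samples together. Without LDH knockout 3 their edgeR adjusted p values were 0.0139 and 0.0151, and without any other single sample they lay above the threshold. For Srxn1 these were 0.178 without knockout 1, 0.170 without knockout 2, 0.114 without control 1, 0.140 without control 2 and 0.0658 without control 3. For Prdx6 they were 0.164, 0.151, 0.0606, 0.121 and 0.0970 in the same order. Their log2 fold changes stayed between -0.54 and -0.39 in these fits. With the Y-linked signal as a covariate the changes were -0.29 for Srxn1 (edgeR adjusted p = 0.461) and -0.52 for Prdx6 (edgeR adjusted p = 0.305).

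The other 5 peroxiredoxins, which reduce hydrogen peroxide in the cytosol, mitochondria, peroxisomes and endoplasmic reticulum, did not pass the test in either set. Prdx1, the gene with the promoter match TGACTCAGC, had -0.03 and 0.02 in the LDH and Acly sets, with 343 to 371 CPM in LDH knockouts and 343 to 394 CPM in their controls. Prdx4, the form of the endoplasmic reticulum, had 0.36 ± 0.17 in the LDH set (SE; edgeR adjusted p = 0.280) with overlapping groups, and 0.53 without LDH knockout 3 (adjusted p = 0.0464). Prdx2, Prdx3 and Prdx5 lay between -0.04 and 0.12 in both sets. Of these only Prdx2 was free of overlap, in the Acly set at 0.10.

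**Figure D2:**
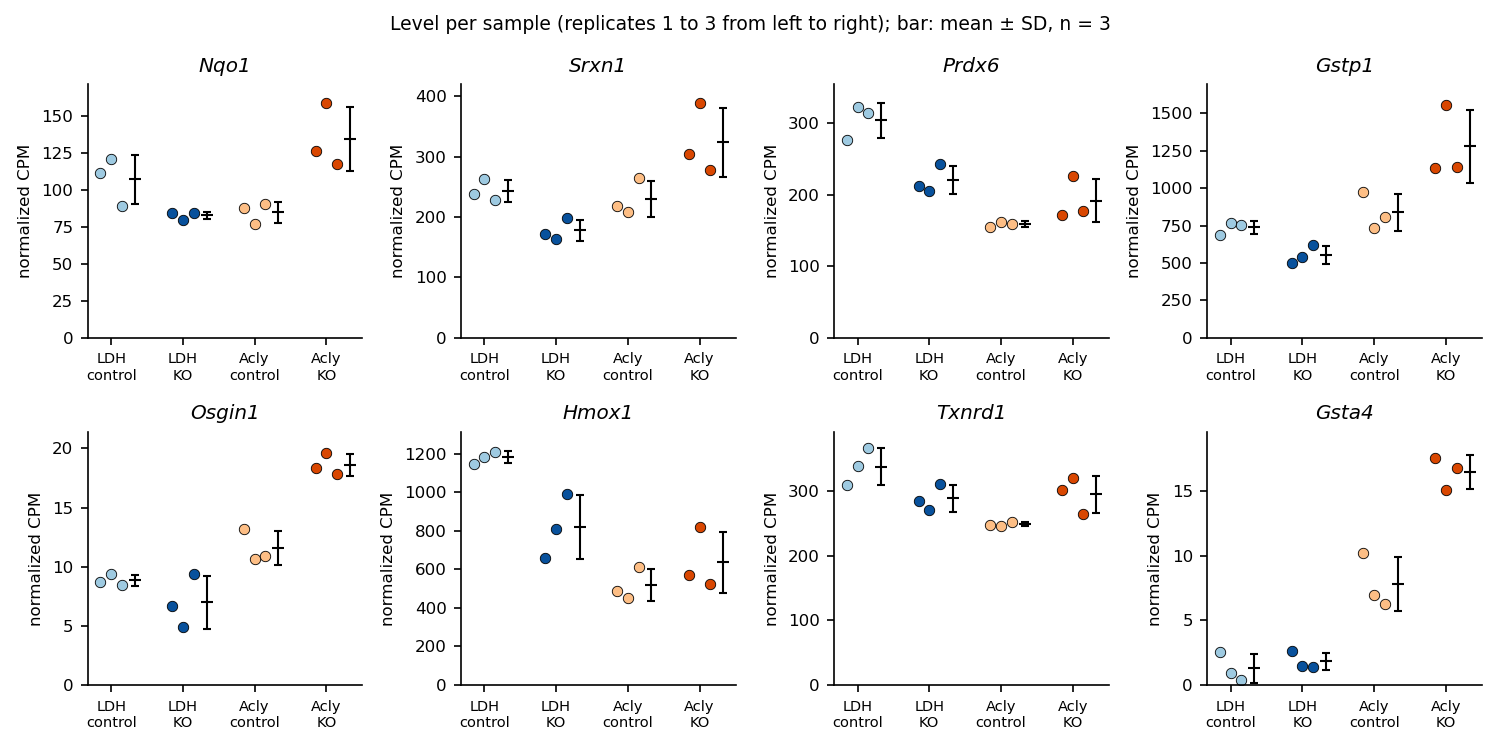
Normalized CPM per sample of 8 members in the 4 groups (replicates 1 to 3 from left to right), with the mean ± SD of 3 samples as a bar beside the points. For Nqo1, Srxn1, Prdx6 and Gstp1 every LDH knockout lies below its controls and every Acly knockout above its controls, and levels were scaled within each knockout set.

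No glutathione peroxidase passed the test in either set. Gpx3, the secreted form, ranged from 319.6 to 467 CPM in LDH knockouts and from 139.5 to 295 CPM in controls without overlap, by 0.77 ± 0.24 (SE; edgeR adjusted p = 0.119). Acly samples ranged from 201 to 276 CPM in knockouts and from 244 to 340.4 CPM in controls with overlap, by -0.40 ± 0.16 (SE; edgeR adjusted p = 0.291). Gpx1, the abundant cytosolic form, measured 154, 209 and 189.7 CPM in Acly knockouts and 154, 141 and 134 CPM in controls. Knockout 1 was only just above control 1, and the log2 fold change was 0.36 ± 0.12 (SE; edgeR adjusted p = 0.259), whereas in the LDH set it was 0.04 with 133, 143 and 142 CPM in knockouts and 134, 125 and 147 CPM in controls. Gpx4, which protects membranes from lipid peroxides, had 0.17 and 0.12, and Gpx7 and Gpx8 of the endoplasmic reticulum lay between -0.09 and 0.03 in both sets.

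Sod3, the superoxide dismutase secreted into cartilage matrix, had the largest negative log2 fold change of the list in the LDH set. It measured 1007, 1233 and 853 CPM in knockouts and 1773, 1258 and 1765 CPM in controls. Knockout 2 and control 2 were close, but no knockout reached a control, and the change was -0.63 ± 0.16 (SE), or 1.55-fold lower (edgeR adjusted p = 0.0743, or 0.0340 without control 2). Levels in the Acly set were far lower, at 77.2, 127 and 71.3 CPM in knockouts and 96.1, 118 and 127 CPM in controls, by -0.31 ± 0.21 (SE; edgeR adjusted p = 0.469). Knockout 2 was level with the highest control, and without it the change was -0.61 with an adjusted p of 0.0435.

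Cat encodes catalase, which splits hydrogen peroxide. It was very even in the Acly knockouts, at 139, 142 and 141 CPM, above 114, 101 and 98.7 CPM in controls. The log2 fold change was 0.43 ± 0.09 (SE; edgeR adjusted p = 0.131). LDH knockouts at 76.1, 82.8 and 70.6 CPM overlapped controls at 72.2, 77.6 and 62.6 CPM, with a change of 0.11 (edgeR adjusted p = 0.569). Sod1, in the cytosol, had 0.12 and 0.18, and Sod2, in mitochondria, 0.27 and 0.00, all with overlapping groups.

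All 3 member glutathione transferases, which couple glutathione to electrophiles, were higher without overlap in the Acly knockouts. Over all genes tested there, 10.7% were higher without overlap. Gsta4, which detoxifies the lipid peroxidation product 4-hydroxynonenal, measured 17.6, 15.1 and 16.8 CPM in knockouts and 10.2, 7.0 and 6.29 CPM in controls. This was the largest change of the list in the Acly set, 1.07 ± 0.19 (SE) on the log2 scale or 2.10-fold, with an edgeR adjusted p of 0.101. Without Acly knockout 2 it was 1.14 with an adjusted p of 0.0186. Its levels in the LDH set were low, with 2.61, 1.49 and 1.39 CPM in knockouts and 2.53, 0.953 and 0.375 CPM in controls, and the change of 0.50 ± 0.54 (SE) was smaller than its error.

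Gstm1 measured 156, 170.3 and 148 CPM in Acly knockouts and 121, 114 and 105 CPM in controls, clear of overlap, with a log2 fold change of 0.48 ± 0.09 (SE; edgeR adjusted p = 0.120). LDH knockouts at 35.7, 43.0 and 52.6 CPM overlapped controls at 40.0, 45.1 and 35.7 CPM, by 0.12 (edgeR adjusted p = 0.675). Gstp1, the most abundant of them, measured 1137, 1559 and 1141 CPM in Acly knockouts and 977, 733 and 804 CPM in controls. All knockouts were above all controls, by 0.61 ± 0.15 (SE; edgeR adjusted p = 0.211). In LDH knockouts it measured 502, 537 and 619 CPM against 689, 767 and 757 CPM, again without overlap but lower, by -0.42 ± 0.10 (SE; edgeR adjusted p = 0.0602, or 0.0187 without LDH knockout 3).

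Transferase genes have near-identical relatives, so counts can be split between them. Gstp2, the neighbour and near copy of Gstp1, had -0.42 in the LDH set and 0.69 in the Acly set at 6.15 to 21.0 CPM on average. Among the 16 other transferases tested in the LDH set, 0 were higher and 1 was lower by edgeR, Gsto1, an omega-class form, at 663, 681 and 719 CPM against 877, 964 and 937 CPM. Its log2 fold change was -0.43 ± 0.08 (SE; edgeR adjusted p = 0.0297). Mgst1 and Mgst3, membrane-bound forms, had 0.98 and 0.75 there with edgeR adjusted p values of 0.0841 and 0.185. Of 17 tested with Acly deleted 0 passed the threshold. After Gstp2 the lowest p-values were those of Gsta1 (2.20) and Gsta3 (0.93), with at most 2.80 and 3.77 CPM in any sample of that set. Of these 17, 9 had a log2 fold change above 0 and 8 below, with a median of 0.01. Without overlap 4 were higher, or 23.5%, and 0 lower, where 10.7% of all genes were higher and 11.3% lower.

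The ferritin chains store iron and were the most abundant members. Ftl1, the light chain, measured 4249, 5931 and 4301 CPM in Acly knockouts and 3772, 2935 and 3335 CPM in controls. No control reached a knockout, and the log2 fold change was 0.53 ± 0.15 (SE; edgeR adjusted p = 0.236). LDH knockouts at 3565, 3613 and 4107 CPM overlapped controls at 3848, 3710 and 4470 CPM, by -0.09 (edgeR adjusted p = 0.663). Fth1, the heavy chain, had -0.11 in the LDH set and 0.27 in the Acly set, with overlapping groups. Both ferritin genes have processed copies in the genome that can take or give reads.

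The difference between the knockout effects was then tested in a fit of all 12 samples, as the LDH effect minus the Acly effect. Of 14251 genes, 0.161% passed the edgeR threshold, which is 23 genes (0.0912% higher and 0.0702% lower), and among the members 0 were higher and 1 was lower. That gene was Nqo1, at -1.02 ± 0.17 (SE) on the log2 scale with an interval of -1.39 to -0.64 (95%) and an edgeR adjusted p of 0.0411. The next were Gstp1 at -1.01 (adjusted p = 0.0580), Srxn1 at -0.92 (adjusted p = 0.0604) and Prdx6 at -0.71 (adjusted p = 0.0799), which did not pass. Osgin1 had -1.01 ± 0.26 (SE; adjusted p = 0.170) and Hmox1 -0.80 ± 0.24 (SE; adjusted p = 0.217). At an unadjusted p under 0.05, 1 member was higher and 11 were lower, where 7.29% of all genes were higher and 5.73% lower. The difference was below 0 for 25 of 36 members, with a median of -0.29 against 0.03 over all genes tested.

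The call of Nqo1 kept its sign in each of the 18 alternative fits and an adjusted p under 0.05 in 8 of them. None of these fits included the Y-linked signal, with which the LDH effect on Nqo1 was 0.04, so they cannot show how the difference depends on it. DESeq2 put 7 members under the threshold in this test (Nqo1, Gstp1, Srxn1, Prdx6, Osgin1, Txnrd1 and Hmox1), all lower, where it called 1.52% of all genes, 0.667% lower. The adjusted p of Nqo1 rose to 0.0981 without LDH knockout 1, 0.115 without LDH knockout 2, 0.0942 without LDH control 1, 0.0953 without LDH control 2 and 0.0534 without Acly knockout 1. It was 0.0761, 0.133 and 0.132 without Acly controls 1, 2 and 3.

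Nqo1, Srxn1, Prdx6 and Gstp1 were lower in every LDH knockout and higher in every Acly knockout than in any of their controls. They are 4 of 36 members, or 11.1%, against 88 of the 13140 genes tested in both sets, or 0.670%. Since the members were chosen with earlier results of these data known, these shares are a description and not an independent test. The promoter windows of Nqo1 and Gstp1 held no match to the core.

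**Figure D3:**
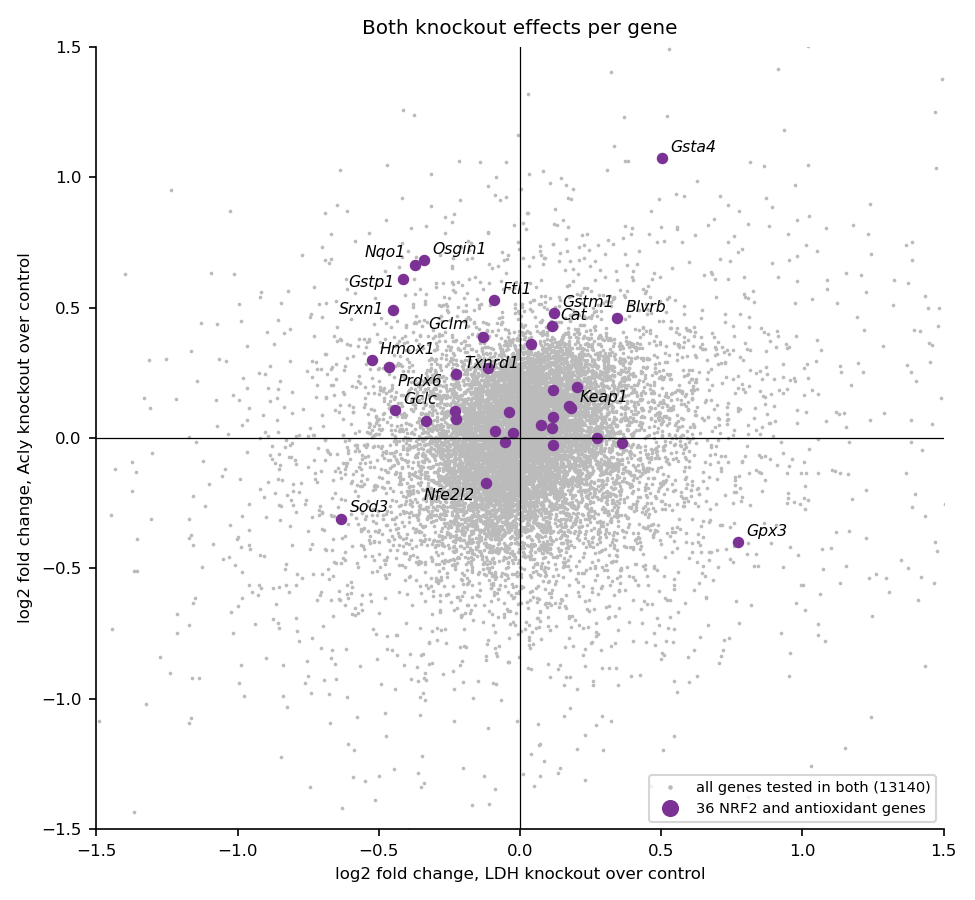
Log2 fold change in the LDH set (horizontal) against that in the Acly set (vertical) for 13140 genes tested in both (grey points; 124 lie outside the axes) and the 36 members (purple, some named). Nqo1, Osgin1, Gstp1, Srxn1, Hmox1 and Prdx6 lie in the upper left part, lower in LDH knockouts and higher in Acly knockouts, while Gpx3 lies at the lower right.

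A longer list of genes known as NRF2 targets, outside the 36, was read in the same way. Of 18 tested in the LDH set, 0 rose and 1 fell by edgeR, Procr, the endothelial protein C receptor, at 23.3, 20.0 and 22.3 CPM against 30.8, 34.1 and 29.9 CPM. Its log2 fold change was -0.53 ± 0.10 (SE; edgeR adjusted p = 0.0228). Abcc4, an export pump, had -0.32 (edgeR adjusted p = 0.0799) and Pir, an iron-binding protein, had 0.77 (edgeR adjusted p = 0.0841). At an unadjusted p under 0.05 by edgeR, 3 of the 18 were higher and 5 lower in the LDH set, where 9.79% of all genes were higher and 9.83% lower. Without overlap 3 were higher and 6 lower, or 16.7% and 33.3%, against 11.9% and 12.5% of all genes. With Acly deleted 0 of 18 passed. There 7 were higher and 2 lower at an unadjusted p under 0.05, where 7.26% of all genes were higher and 8.57% lower.

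In the Acly set 15 of the 18, or 83.3%, were above 0 with a median of 0.18, against 49.7% of all genes. Without overlap 8 were higher, or 44.4%, and 1 was lower, where 10.7% of all genes were higher and 11.3% lower. Pir led the list with 16.8, 15.4 and 17.8 CPM in Acly knockouts and 10.9, 9.89 and 9.69 CPM in controls, by 0.71 ± 0.13 (SE; edgeR adjusted p = 0.0935). Cbr3, a carbonyl reductase, had 0.59 (edgeR adjusted p = 0.236) and Ephx1, an epoxide hydrolase, 0.53 (edgeR adjusted p = 0.253). The difference between the knockouts was below 0 for 15 of the 18, against 6520 of all 14251 genes tested. Its lowest p was that of Akr1b8, an aldo-keto reductase, at -0.54 (edgeR adjusted p = 0.109).

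Enzymes that supply NADPH, the reductant of both the glutathione and thioredoxin systems, gave 0 calls among 12 tested in the LDH set and 0 among 13 in the Acly set. G6pdx, the entry enzyme of the pentose phosphate pathway, had 0.40 ± 0.09 in the LDH set (SE; edgeR adjusted p = 0.0567), and Pgls, the next enzyme, 0.41 (edgeR adjusted p = 0.0769). Pgd, the enzyme after that, had -0.16 in the LDH set and 0.44 in the Acly set (edgeR adjusted p = 0.252). The Acly set also had Tkt, transketolase, at 0.35 and G6pdx at 0.24, with edgeR adjusted p values of 0.259 and 0.279. Unadjusted p-values under 0.05 were found for 2 of the 12 genes in the LDH set and 4 of the 13 in the Acly set, all higher, where 9.79% and 7.26% of all genes were. The LDH count lies near that background.

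Among 25 other redox enzymes in the LDH set and 26 in the Acly set 0 passed the edgeR threshold. Msra, a methionine sulfoxide reductase, was nearest in the LDH set at 0.57 (edgeR adjusted p = 0.0587), and Ggt1, which cleaves extracellular glutathione, in the Acly set at 0.94 (edgeR adjusted p = 0.268). Txnip, the inhibitor of thioredoxin, had -0.26 in the Acly set (edgeR adjusted p = 0.285). Of 15 genes of haem and iron handling 0 passed in either set. Trf, transferrin, had 1.71 ± 0.48 in the LDH set (SE; edgeR adjusted p = 0.0969), and Slc39a14, a zinc and iron importer, -0.49 ± 0.10 in the Acly set (SE; edgeR adjusted p = 0.120).

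Cell type markers differed between the same groups. Fat cell markers summed to 1.20 to 2.14 CPM in LDH controls and 11.2 to 43.1 CPM in LDH knockouts, and 4 of 4 tested were called higher. Osteoblast markers summed to 44.0 to 48.2 CPM in controls and 10.4 to 16.8 CPM in knockouts, with 2 of 3 tested called lower and 1 marker listed at 0 in all knockouts. Macrophage markers overlapped, from 68.2 to 113 CPM and from 69.3 to 140.4 CPM, and red blood cell markers from 20.3 to 33.7 CPM and from 9.32 to 24.3 CPM.

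Macrophage markers summed to 118.3 to 134 CPM in Acly controls and 144.7 to 159.6 CPM in knockouts without overlap, with 0 of 6 called. Singly, 4 had a log2 fold change above 0 and 2 below, with a median of 0.08, and 2 were higher without overlap. Osteoblast markers summed to 120.7 to 127.4 CPM in Acly controls and 78.8 to 118.3 CPM in knockouts, lower without overlap. Singly, the groups of all 4 tested overlapped, with 1 above 0, 3 below and 0 called. Muscle markers were 143.3 to 195.6 CPM in controls and 60.2 to 155.6 CPM in knockouts. All 5 had a log2 fold change below 0, and 3 were lower without overlap, with 0 called. Fibroblast markers were 459 to 615 CPM in controls, 476 and 493 CPM in knockouts 3 and 1, and 184.7 CPM in knockout 2, the Acly sample with the highest Nqo1, Hmox1, Srxn1, Prdx6, Gstp1 and Ftl1. The part of these cell types in the members' values was not tested.

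The levels of the members in unperturbed cells were compared between the control groups, from E18.5 and postnatal day 5, with all 12 samples scaled together. Of all genes 55.0% differed by edgeR, 29.4% higher and 25.7% lower in the Acly controls, and of the 36 members 8 were higher and 13 lower. This split turned with the scaling. On library totals alone 5492 genes were higher and 2091 lower, with 14 members higher and 9 lower, and limma on FPKM gave 5490 and 2094 genes and the same member counts. The median over all genes was 0.02 with TMM, 0.19 on library totals and 0.18 on FPKM. Sod3 was lower by the largest margin, 108 ± 14.9 CPM in Acly controls against 1691 ± 310.3 CPM in LDH controls (SD, n = 3), or -3.97 ± 0.23 (SE) on the log2 scale. Fth1 (-1.54), Hmox1 (-1.35), Prdx6 (-1.09), Gss (-0.98) and Sod2 (-0.93) were also lower at E18.5, each with an edgeR adjusted p under 0.05. Gsta4 (2.44), Prdx4 (1.45), Gstm1 (1.34), Blvrb (1.19) and Txn1 (0.87) were higher there. The 11 genes just named kept their direction and an adjusted p under 0.05 under both other scalings.

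Every list of cell type markers had a median above 0 in the Acly controls over the LDH controls. The median log2 differences were 3.98 for muscle, 3.60 for fat cells, 3.38 for fibroblasts and 2.90 for endothelium. They were 1.72 for osteoblasts, 1.36 for red blood cells, 1.32 for macrophages and 0.56 for chondrocytes, with 1 macrophage and 1 chondrocyte marker called lower. The part of these cell types in the members' differences was not tested. Nqo1 was lower in Acly controls by -0.49 ± 0.12 (SE; edgeR adjusted p = 0.00421) and Nfe2l2 by -0.28 ± 0.08 (SE; edgeR adjusted p = 0.00800). The Nqo1 call held on library totals alone (-0.32) and on FPKM (-0.31). That of Nfe2l2 was lost, at -0.11 in both, with adjusted p values of 0.269 by edgeR and 0.251 by limma. Gstp1 had 0.03 and Srxn1 -0.23, and neither passed the edgeR threshold (adjusted p = 0.862 and 0.128).

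Compared per transcript length in deposited TPM (transcript abundance scaled to the total), the members spanned 2.78 to 13700 in LDH controls and 11.6 to 7077 in Acly controls. In LDH controls Fth1 was first at 13700 ± 772 TPM and Ftl1 second at 8407 ± 437 TPM (SD, n = 3), and in Acly controls the order was Ftl1 at 7077 ± 633 TPM and Fth1 at 5300 ± 389 TPM (SD, n = 3). Gstp1 was at place 3 in both, at 2077 ± 144 and 2373 ± 271 TPM (SD, n = 3). Sod3 was at place 4 in LDH controls at 1519 ± 244 TPM, which did not differ from Hmox1 at 1479 ± 53.0 TPM beyond its spread, and was at place 20 in Acly controls at 109.7 ± 17.8 TPM, level with Nqo1 at 109 ± 6.54 TPM.

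At the low end stood Txnrd2 at 13.3 TPM, Osgin1 at 8.77 TPM and Gsta4 at 2.78 TPM in LDH controls. In Acly controls Gsta4 at 16.8 TPM stood above Txnrd2 and Osgin1, both at 11.6 TPM, which did not differ beyond their spread. Nfe2l2 was at place 13 in both control groups, at 208 ± 18.7 and 192 ± 13.2 TPM (SD, n = 3), and Keap1 was at 31.1 ± 1.93 and 36.2 ± 0.553 TPM (SD, n = 3).

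**Figure D4:**
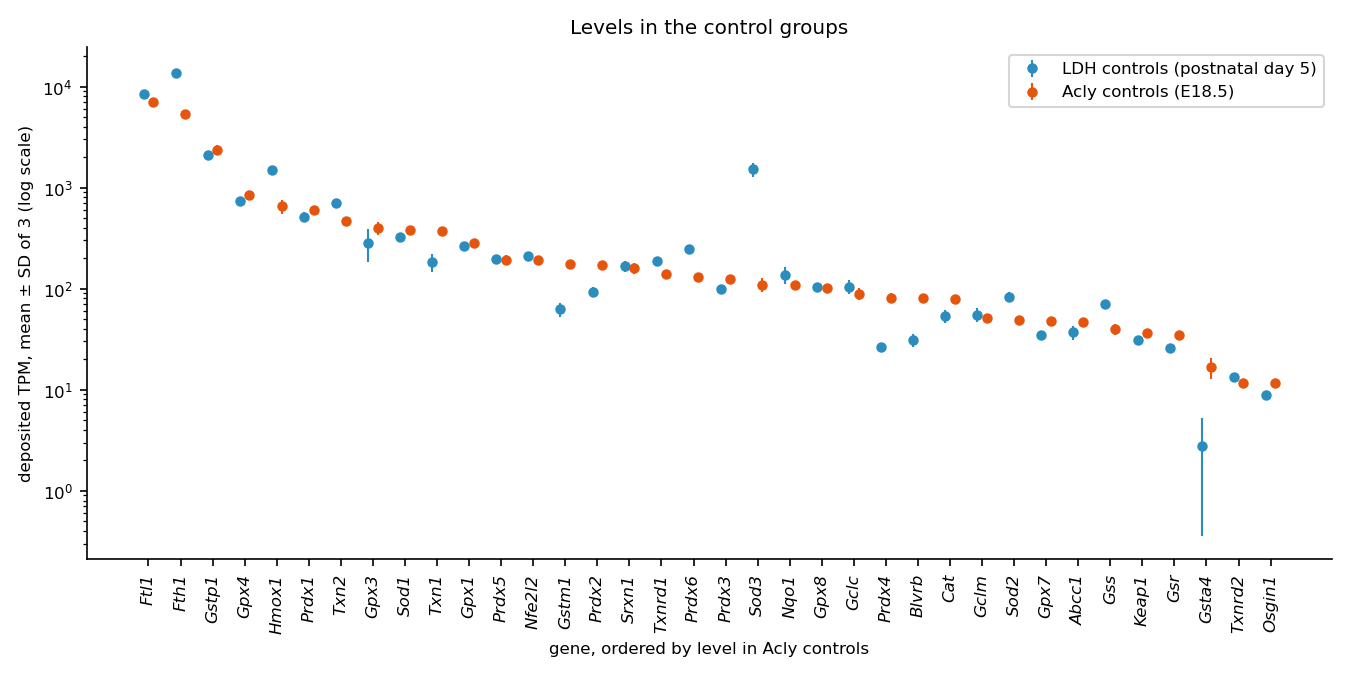
Deposited TPM of the 36 members in LDH controls (blue, postnatal day 5) and Acly controls (orange, E18.5), mean ± SD of 3 samples on a log axis, ordered by the level in Acly controls. The ferritin genes and Gstp1 are highest in both groups, and Sod3 shows the widest gap, 1519 TPM against 109.7 TPM.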

How the data were processed

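RNA of 12 samples was sequenced on BGI's platform after oligo(dT) selection, per the labels' protocols. The authors deposited 1 table of 17922 genes with read counts, FPKM and TPM values for each sample, per the file headers. Of the deposited counts 7.32% to 8.16% per sample were not whole, so they were taken to be expected counts and rounded. HISAT2 2.0.4 and build mm9 are named in the submitters' processing notes. The counting program, annotation and use of strand are not given in the sources used here, so overlapping and duplicated genes are uncertain.

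Counts were tested with edgeR 4.0.16 in R 4.3.3 (TMM, filterByExpr, quasi-likelihood F test, two-sided, Benjamini-Hochberg adjustment over all genes tested, threshold 0.05). Each knockout was fitted with its control, and the difference of effects and the control comparison came from all 12 samples. A standard error is the log2 fold change divided by the square root of F. Deposited FPKM values were used, as log2(FPKM + 0.1), with limma 3.58.1 as an alternative, and DESeq2 1.42.0 as another. Deposited TPM values served only to compare genes. Scripts were tested on simulated data.

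Every member may be named. Values in each sample are given for Nfe2l2, Keap1, members past the threshold in a knockout test or in the difference, the 10 lowest p-values in the Acly set and the 5 lowest in the LDH set. From the other lists genes past the threshold were named, or otherwise from the 3 lowest p-values. The members and lists were chosen with earlier results of these data known. Replicate numbers did not pair samples. Promoters came from RefSeq, GRCm38.p6.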

Additional observations from a re-analysis of the deposited data

Results flagged for a closer look

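The effect on Nqo1 differed between the knockouts. The LDH effect minus the Acly effect was -1.02 on the log2 scale in the interaction test, with knockouts lower than controls in 3 of 3 LDH samples and higher in 3 of 3 Acly samples. Age, line and deleted gene coincide in this contrast and cannot be told apart, and the Y-linked signal was at most 0.0367 CPM in LDH knockouts but 92.95 and 102.1 CPM in 2 of their 3 controls. With that signal as a covariate the LDH effect on Nqo1 was 0.04, and the difference itself was not fitted with it. Groups of 3 are too small for a check of single outlying samples.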

How the results depend on the processing

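Counts of called genes moved with the test and the samples used. In the LDH set 332 genes and 2 members were called. DESeq2 called 888 genes and 7 members, and the Y-linked covariate left 3 genes and 0 members. The replicate block and the fit of all 12 samples each left 1 member, Prdx6. Leaving out each replicate in turn gave 95 to 1068 genes and 0 to 7 members, highest without LDH knockout 3. In the Acly set 19 genes and 0 members were called. The counts were 11 genes without TMM, 249 with DESeq2 (9 members), 32 with no filter, 8 with the replicate block, 31 with all 12 samples and 6 with the Y-linked covariate. Leaving out each replicate gave 0 to 132 genes and 0 to 4 members, highest without Acly knockout 2. For the difference of effects 23 genes and 1 member were called. DESeq2 called 217 genes and 7 members, and the replicate block 5 genes and 0 members. It was 2 members without TMM, 3 with no filter and 0 with limma on FPKM. Leaving out each replicate gave 5 to 143 genes and 0 to 5 members. Between the control groups the totals stayed within 1.5 times of 7844 genes and 21 members, but their direction did not: members went from 8 higher and 13 lower to 14 and 9 without TMM and with limma on FPKM.

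A pair of subsets was chosen after seeing the data, samples with a Y-linked signal under 10 CPM and those above it. The low-signal subset called 15 genes and 0 members in the LDH set, where 1 control remains, and 70 genes and 0 members in the Acly set, where 1 knockout remains. The high-signal subset, with 1 control, called 0 genes and 0 members in the Acly set. Each lone sample is assumed to vary like the other group.

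No member value past the threshold in edgeR with TMM, the filter and every sample of a comparison changed direction under an alternative. The difference of effects and the control comparison were not fitted with the Y-linked signal. Over all 36 members, the sign changed in 23 of 540 alternative fits in the LDH set, 42 of 576 in the Acly set, 33 of 648 for the difference and 10 of 396 between controls. Among them was Nqo1 in the LDH set, from -0.37 to 0.04 with the Y-linked covariate, which DESeq2 called (adjusted p = 0.0310) and edgeR called without LDH control 3 (adjusted p = 0.0406). Same-numbered samples did not deviate together (r = 0.0756, -0.183 and 0.0013 in the LDH set, -0.151, -0.326 and -0.314 in the Acly set), so a call lost under the block is not read as a weaker effect. At these depths 3 counts equal 0.107 to 0.114 CPM, and such a floor covers counting error only. Gsta4 in LDH controls, at 0.375 to 2.53 CPM, was the member nearest to it.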
